A study of Mus musculus with 5 samples.

Results

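The glutamate receptor genes and the genes of their auxiliary subunits were followed in mice after a sham operation or an ischemic stroke. Members were the rows of the deposited table whose symbol was 1 of 32 listed genes. All 32 were found among its 51912 rows, and all 32 had an adjusted p-value, which 17420 rows had. They were 4 AMPA receptor subunits, 6 NMDA receptor subunits, 5 kainate receptor subunits, 1 delta receptor, 6 metabotropic receptors, 6 transmembrane AMPA receptor regulatory proteins (TARPs), 2 cornichons and 2 Neto proteins.

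RNA sequencing covered 5 libraries of the C57BL/6 strain, 2 labelled sham and 3 labelled stroke. For stroke, the middle cerebral artery was closed for 30 minutes with a coated filament under ketamine and xylazine, and mice were kept when cerebral blood flow dropped by at least 80%. A motor score was taken after 24 hours. The sources used here do not give the tissue, the side of the brain, the time of sampling, the age or the sex, nor whether each library came from 1 mouse. P-values therefore measure the spread between these libraries, which may be technical.

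Glutamate is the main excitatory transmitter of the brain. AMPA, NMDA and kainate receptors are ion channels built from several subunits, and the subunit mix sets their calcium permeability, kinetics and trafficking. Metabotropic receptors act through G proteins, and TARPs, cornichons and Neto proteins are membrane proteins that travel with AMPA or kainate receptors and change their gating. Excess glutamate acting on NMDA receptors is a classic route of neuron death in ischemia.

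The 4 GluN2 genes, which encode the glutamate-binding subunits of NMDA receptors, showed the widest differences between the 2 sham libraries of all members, so a short coding stretch of 3 of them is printed here to show how their base composition differs. It holds the last 25 codons before the stop, which end in the tail that binds postsynaptic scaffold proteins, and lies in exon 14 of Grin2b, exon 15 of Grin2c and exon 12 of Grin2d. The sequences come from the longest coding transcript of each gene in GENCODE M21 (GRCm38), on the minus strand, 5′ to 3′, and capitals mark G or C at the third base of a codon.
Grin2b, chr6:135732101-135732175: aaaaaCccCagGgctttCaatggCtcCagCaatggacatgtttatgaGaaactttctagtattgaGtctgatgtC
Grin2c, chr11:115249574-115249648: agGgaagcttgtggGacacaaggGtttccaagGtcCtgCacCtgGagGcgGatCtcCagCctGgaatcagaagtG
Grin2d, chr7:45832783-45832857: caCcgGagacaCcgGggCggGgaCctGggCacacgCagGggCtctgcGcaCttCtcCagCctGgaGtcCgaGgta

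Here Grin2b shared 26 of 75 bases with Grin2c and 29 with Grin2d. GC content of the stretch was 41.3% in Grin2b, 57.3% in Grin2c and 70.7% in Grin2d. Over the whole coding sequence it was 52.9%, 62.4% and 67.3% in that order, so the stretch overstates the difference. Over the longest coding transcript GC content was 44.8% in Grin2a, 45.7% in Grin2b, 62.1% in Grin2c and 65.0% in Grin2d. By transcript, Grin2a and Grin2b thus form a low-GC pair and Grin2c and Grin2d a high-GC pair. The sham libraries split them the same way, as given further on. So did exon length, at 17933 and 24842 bases for Grin2a and Grin2b against 5037 and 6658 for Grin2c and Grin2d. The parts of GC content and length in the split between the sham libraries were not tested.

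Levels are normalised reads, that is, reads divided by the size factor of the library, recovered from the deposited values. Libraries are called stroke library 1, 2 and 3 and the deeper and the shallower sham library, by size factor, since the values cannot be tied to the replicate numbers. Over 17291 genes with recovered reads, the stroke libraries held 23733044 to 27203272 reads, the deeper sham 19632579 and the shallower sham 16158815. The deeper sham library stood apart from the other libraries at Ttr and Gapdh. Ttr, the transthyretin gene of the choroid plexus, was at 12947 in the deeper sham, 69.5 in the shallower sham and 15.03 to 25.1 in the stroke libraries. Gapdh, a glycolytic enzyme gene, was at 171 in the deeper sham and at 8134 to 10796 in the other libraries. Whether the reads of that library were aligned and counted like the others was not tested, which also bears on other values of the deeper sham. The shallower sham library stood apart too, at other genes. Actb was at 48533 there and at 19042 to 31244 in the other libraries. Rorb, a listed cortical glutamatergic marker, was at 4720 there and at 858 to 1361 in the other libraries. Trim9, for which the series is named, was at 8513 to 9629 in stroke against 4491 and 4186 in sham. In bulk RNA, fewer cells of a type and less RNA per cell cannot be told apart.

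In the authors' deposited table, 0 of the 32 members passed an adjusted p below 0.05 between stroke and sham, against 1.56% of all genes with an adjusted value. None had an unadjusted p below 0.05 either, against a background of 10.5%. The smallest adjusted p among them was 0.517, by the authors' DESeq2 Wald test. By limma on the log2 of recovered reads the members again gave 0 calls, against 0.0289% of all genes, and 0 at an unadjusted p below 0.05, against 7.10%. Per the authors' deposited table, 19 members had a positive and 13 a negative fold change, with a median log2 fold change of 0.06 against -0.02 over all genes tested. Their log2 fold changes ran from -0.47 to 0.49, with standard errors of 0.17 to 0.45.

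**Figure D1:**
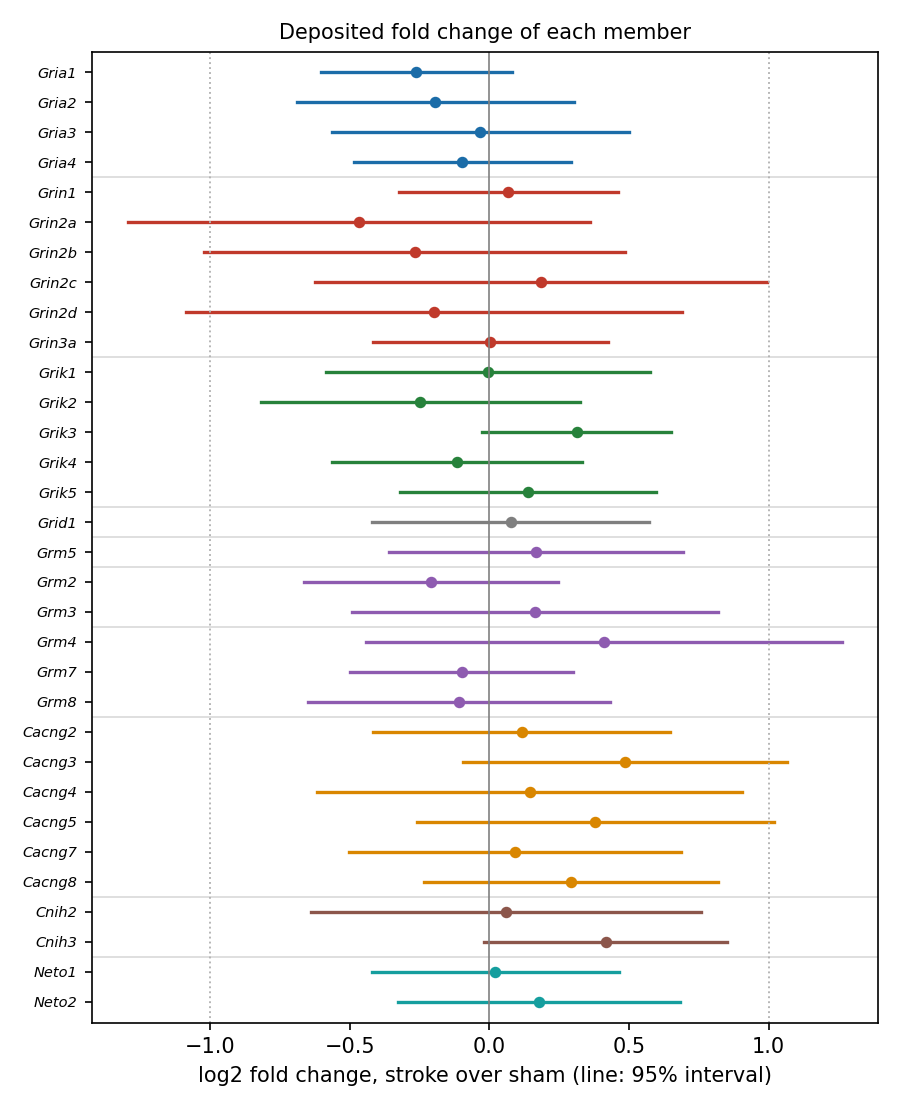
Log2 fold change of stroke over sham for each of the 32 members in the authors' deposited table (points), with 95% intervals (lines) and colours by receptor class. Dotted lines mark 2-fold changes. Every interval holds 0, and 6 of the 32 reach beyond a 2-fold change.

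The intervals, at 1.96 standard errors on either side, show which sizes of change the deposited fit leaves possible. For 26 members the 95% interval lay within a 2-fold change in both directions, and for 8 of these it lay within 1.5-fold. The 26 include Grin2c, whose interval reached 0.99 on the log2 scale. Against the shallower sham alone its log2 fold change by limma was 1.141, beyond 2-fold, so the intervals do not bound the change against each sham library. The 6 members with wider intervals were Grin2a, Grin2b, Grin2d, Grm4, Cacng3 and Cacng5. Counting error was small beside this, since members had 199 to 30942 reads in a library, and 199 reads have an exact Poisson 95% interval of 172 to 229. This interval covers counting error only.

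Per kilobase of all annotated exons of a gene, the highest mean level over the 5 libraries was that of Cnih2, at 3009 normalised reads. Cnih2 is a cornichon that slows the closing of AMPA receptors. Gria1 followed at 2219, Cacng7 at 1671, Grin1 at 1475, Grik5 at 1289, Gria2 at 1220 and Grin2b at 1040. Neighbours among these overlapped between libraries, as Cnih2 alone ran from 1752 to 4117 per kilobase. At the low end stood Grin2d at 82.5, Grik1 at 56.7 and Grm8 at 53.8. For some members all annotated exons together are much longer than the longest coding transcript. They span 9700 against 4276 bases for Grin1, 9898 against 3856 for Grm8 and 1369 against 1343 for Cnih2. The order of the members therefore depends on which length is used, and only the exon length was ranked. Every member was read in every library.

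**Figure D2:**
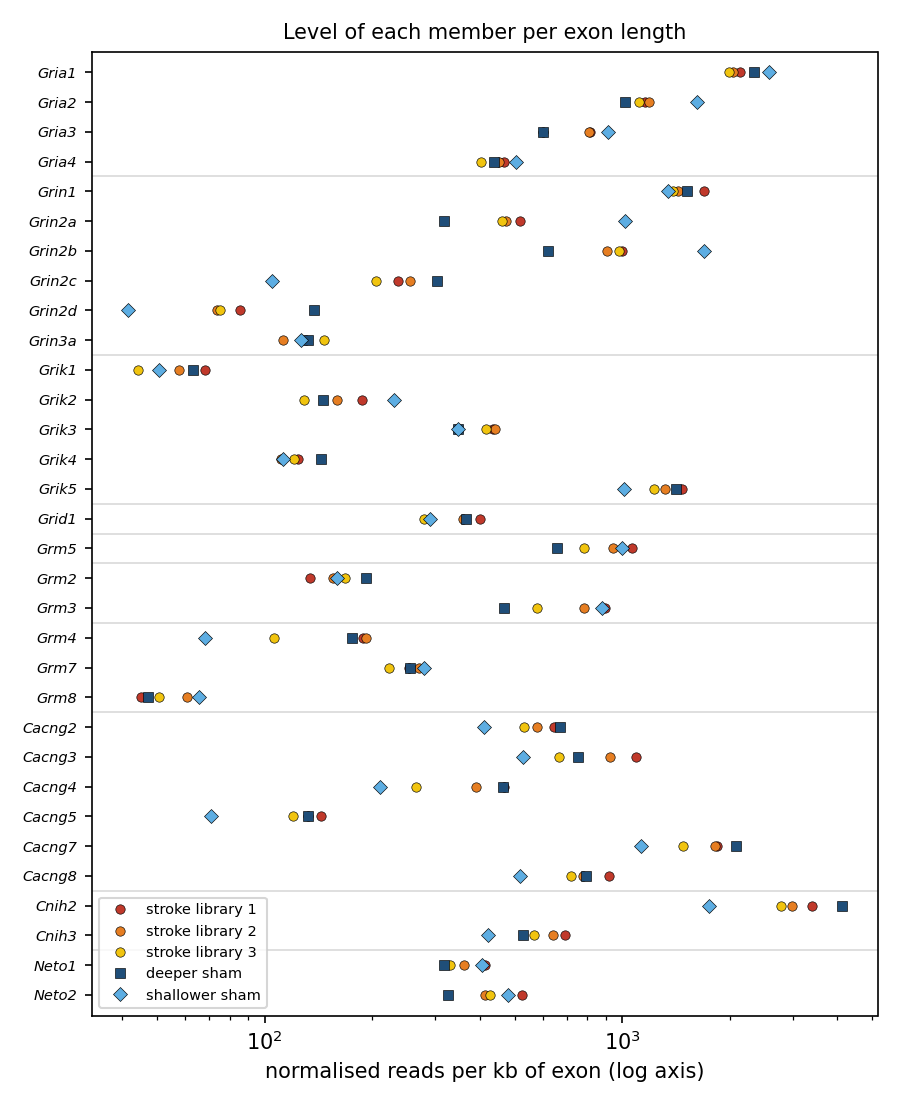
Normalised reads per kilobase of exon on a log axis for each member, 1 symbol per library, with circles for the 3 stroke libraries, squares for the deeper and diamonds for the shallower sham library. With all annotated exons as the length, mean levels span 53.8 for Grm8 to 3009 for Cnih2. The diamonds and squares often sit at the ends of a row.

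Among the AMPA receptor subunits, which form the fast excitatory channel, all 4 deposited fold changes were below 0, but by limma against the deeper sham alone Gria2 (0.18), Gria3 (0.28) and Gria4 (0.0089) were above 0 on the log2 scale, and 0 of these were called. Gria1 (chromosome 11, 57011387 to 57330244, plus strand) encodes GluA1, a subunit inserted during plasticity. It was at 12892, 12315 and 12066 in the stroke libraries and at 14176 and 15601 in the deeper and shallower sham. All 3 stroke libraries lay below both sham libraries, the 1 member placed so, where 11.0% of all genes were. The authors' deposited table placed it at -0.26 on the log2 scale (SE 0.17, with p = 0.703 after adjustment of the DESeq2 Wald test).

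Gria2 encodes GluA2, the subunit that makes AMPA receptors nearly impermeable to calcium. Its levels were 17972, 18536 and 17300 in stroke and 15872 and 25145 in the deeper and shallower sham. The stroke libraries lay between the sham libraries. Gria3 was at 8029, 7962 and 5930 in stroke against 5940 and 8999 in sham, and Gria4, the subunit of fast-spiking cells, at 2952, 2862 and 2537 against 2760 and 3192. The groups overlapped for both. Log2 fold changes in the authors' deposited table were -0.19 for Gria2 (SE 0.25), -0.03 for Gria3 (SE 0.27) and -0.10 for Gria4 (SE 0.20).

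NMDA receptors join the obligatory subunit GluN1, from Grin1, with GluN2 or GluN3 subunits. Grin1 was at 16399, 13876 and 13446 in stroke and at 14725 and 13072 in sham, so the groups overlapped. The GluN3A gene Grin3a, whose product lowers calcium flow, was at 1597, 1379 and 1797 in stroke and at 1624 and 1549 in sham. Both were close in the 2 sham libraries, with log2 fold changes of 0.07 for Grin1 (SE 0.20) and 0.0041 for Grin3a (SE 0.22) per the authors' deposited table.

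The GluN2 genes behaved otherwise: all 4 had their 3 stroke libraries between the sham libraries. Grin2a, whose product GluN2A is the main mature forebrain form, was at 9296, 8508 and 8258 in stroke, 5691 in the deeper sham and 18328 in the shallower sham. Grin2b, for the early and extrasynaptic form GluN2B, was at 24793, 22584 and 24308 in stroke, 15364 in the deeper sham and 42159 in the shallower sham. For both genes the deeper sham was lowest and the shallower sham highest. Grin2c, a form of cerebellum, thalamus and astrocytes, was at 1188, 1284 and 1034 in stroke, 1526 in the deeper sham and 527 in the shallower sham. Grin2d, a form of interneurons and the brainstem, was at 570, 491 and 498 in stroke, 915 in the deeper sham and 275 in the shallower sham. For these genes the order of the sham libraries was the opposite.

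The stroke libraries were close to each other at these genes, with 8687 ± 542 for Grin2a, 23895 ± 1161 for Grin2b, 1169 ± 126 for Grin2c and 519 ± 43.6 for Grin2d (mean ± SD, n = 3). The log2 ratio of the shallower to the deeper sham was 1.69 for Grin2a, 1.46 for Grin2b, -1.53 for Grin2c and -1.73 for Grin2d. In the authors' deposited table the log2 fold changes were -0.47 for Grin2a (SE 0.42, adjusted p = 0.843), -0.27 for Grin2b (SE 0.39, adjusted p = 0.933), 0.19 for Grin2c (SE 0.41, adjusted p = 0.963) and -0.20 for Grin2d (SE 0.45, adjusted p = 0.966), by the DESeq2 Wald test.

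**Figure D3:**
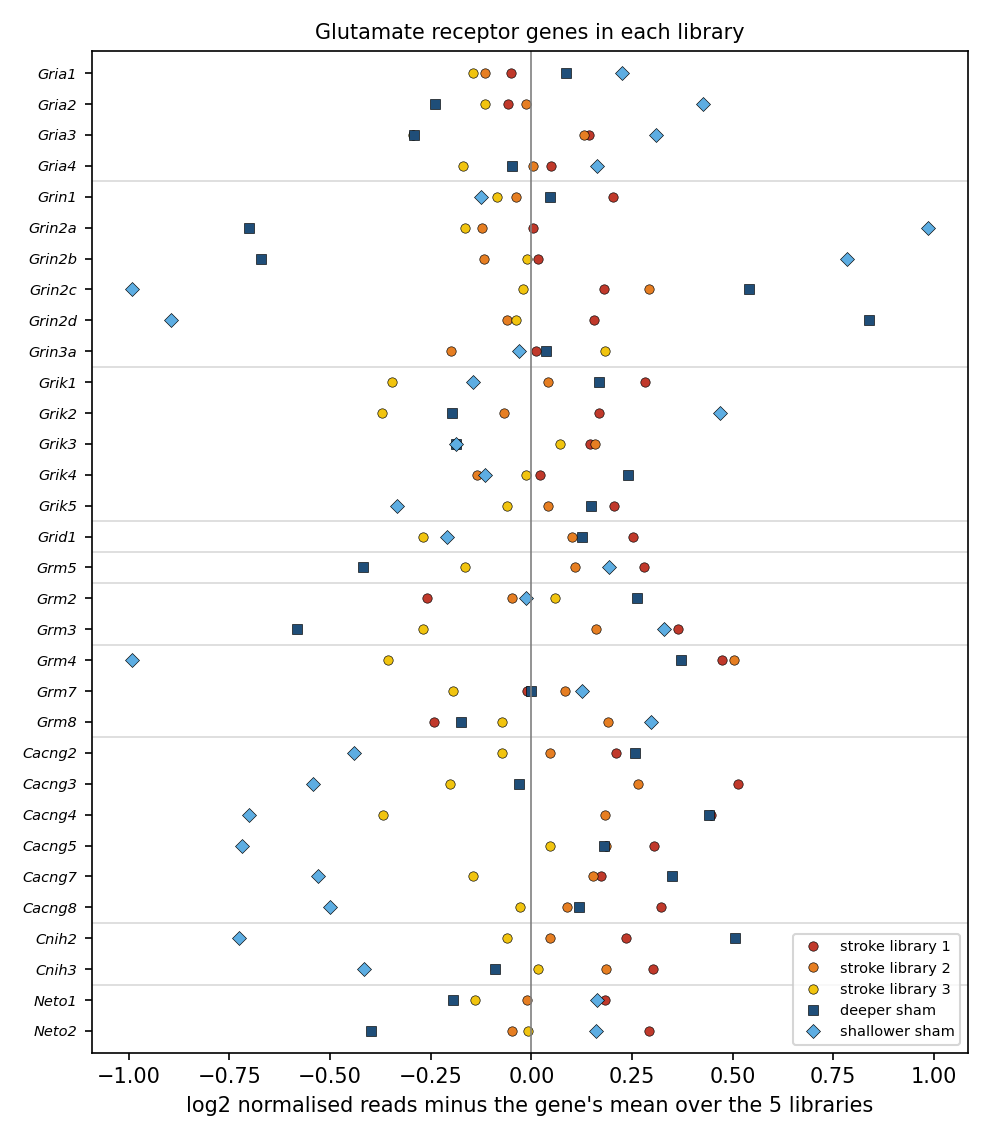
Log2 normalised reads of each member in each library, minus the gene's mean over the 5 libraries, with circles for stroke, squares for the deeper and diamonds for the shallower sham library. For Grin2a, Grin2b, Grin2c and Grin2d the circles cluster between a square and a diamond that lie 1.46 to 1.73 apart in size.

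Kainate receptors tune transmitter release and network rhythm. Grik3 (chromosome 4, 125490700 to 125714173, plus strand), for GluK3, was at 3918, 3953 and 3725 in stroke and at 3113 in both sham libraries. All 3 stroke libraries lay above both sham libraries, and this was the member on which the sham libraries were closest. Its fold change on the log2 scale was 0.31 (SE 0.17) with an adjusted p of 0.542 by the DESeq2 Wald test of the authors' deposited table. Cnih3, below, was the other member placed so, making 2 of 32 against 13.2% of all genes.

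Grik2, for GluK2, was at 2482, 2108 and 1707 in stroke and at 1925 and 3056 in sham. Grik5, for the high-affinity subunit GluK5, was at 7614, 6796 and 6338 in stroke and at 7325 and 5242 in sham. The groups overlapped for both, as for Grik1, which ranged from 297 to 458 over the 5 libraries, and Grik4, which ranged from 662 to 859. Grid1 encodes a delta receptor, which works as a synaptic organiser. It was at 2385, 2145 and 1659 in stroke and at 2185 and 1729 in sham, which overlap.

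Of the metabotropic receptors, the group I receptor gene Grm5, whose product raises cell calcium and couples to NMDA receptors, was the highest per kilobase, at 889.5. It was at 10900, 9686 and 8009 in stroke and at 6723 and 10257 in sham. Grm3, a group II receptor gene of neurons and astrocytes, was at 2739, 2379 and 1766 in stroke and at 1422 and 2676 in sham. Grm2, the other group II gene, was at 656, 759 and 819 in stroke and at 942 and 778 in sham. The groups overlapped for all of these genes.

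Group III receptors sit on nerve endings and lower release. Grm4 (chromosome 17, 27422387 to 27521403, minus strand) was at 1125, 1150 and 633 in stroke, 1050 in the deeper sham and 407 in the shallower sham. Stroke library 3 lay apart from the other stroke libraries, and the deeper sham fell among the stroke values. Per the authors' deposited table it stood at 0.41 on the log2 scale (SE 0.43), with an adjusted p of 0.897 by the DESeq2 Wald test, and its interval reached 1.26. Grm7 ranged from 1315 to 1642 and Grm8 from 445 to 647 over the 5 libraries, with overlapping groups.

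Some TARPs carry AMPA receptors to the synapse and slow their closing, which need not hold for each member of the family. All 6 listed TARPs had a positive log2 fold change in the authors' deposited table. These values ran from 0.09 for Cacng7 to 0.49 for Cacng3, and none was called. Cacng3 (chromosome 7, 122670492 to 122769393, plus strand), for TARP gamma-3, had the highest fold change of the 32. It was at 3047, 2565 and 1854 in stroke, 2089 in the deeper sham and 1465 in the shallower sham. Stroke library 3 fell below the deeper sham, so the groups overlapped. The authors' deposited table gave it a standard error of 0.30 and an adjusted p of 0.625 by the DESeq2 Wald test.

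The shallower sham was the lowest of the 5 libraries for all 6 TARPs. Cacng2, for stargazin, was at 3564, 3184 and 2929 in stroke, 3683 in the deeper sham and 2269 in the shallower sham. Cacng8, the TARP of hippocampal and cortical AMPA receptors, was at 2149, 1827 and 1684 in stroke, 1864 in the deeper sham and 1214 in the shallower sham. Cacng7, the TARP with the highest level per kilobase, was at 4500, 4437 and 3606 in stroke, with 5083 and 2763 in the deeper and shallower sham. Cacng4 ranged from 753 to 1672 and Cacng5 from 271 to 551. Against the deeper sham alone the 6 did not share a direction: by limma the log2 fold change was 0.22 for Cacng3, 0.0100 for Cacng8, -0.0025 for Cacng5, -0.20 for Cacng2, -0.29 for Cacng7 and -0.35 for Cacng4, and 0 of these were called.

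Cnih3 (chromosome 1, 181352628 to 181460641, plus strand), the second cornichon gene, had the smallest p of all members. It was at 1905, 1757 and 1561 in stroke and at 1450 and 1158 in sham. All stroke values lay above both sham values. Its fold was 1.33, or 0.42 on the log2 scale (SE 0.22), with an adjusted p of 0.517 by the DESeq2 Wald test in the authors' deposited table. Cnih2 was at 4666, 4095 and 3803 in stroke, 5636 in the deeper sham and 2398 in the shallower sham, so its stroke values lay between. Neto1 and Neto2 encode partners of kainate receptors. Neto1 was at 3446, 3010 and 2753 in stroke and at 2654 and 3395 in sham, and Neto2 at 3213, 2539 and 2610 against 1993 and 2936.

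Across the members, all 3 stroke libraries lay between the 2 sham libraries for 8 of 32 genes, where 29.0% of all genes were. The 8 were the 4 GluN2 genes, Gria2, Cacng2, Cacng7 and Cnih2. The higher sham value was a median of 1.49 times the lower over the members, and 1.36 times over the 8494 genes with at least the mean of the lowest member. The highest stroke value was a median of 1.24 times the lowest, against 1.19 over those genes. The sham libraries differed by 2-fold or more for 7 members, namely the 4 GluN2 genes, Grm4, Cacng4 and Cnih2, and for 11.9% of those genes. No member differed by 2-fold among the stroke libraries, where the widest ratio was 1.82. Stroke library 1 was the highest stroke library for 24 of 32 members and stroke library 3 the lowest for 25. The shares over all genes were not counted, so whether this order is particular to the members cannot be told. Summed pan-neuronal markers were also highest in stroke library 1 and lowest in 3, at 265162, 260058 and 220831. The 8 astrocyte markers with recovered reads summed to 38240, 45757 and 45818 in stroke libraries 1, 2 and 3. Of these Gfap alone was at 3115, 3682 and 9744. Aqp4, Aldh1l1, Slc1a3 and Sox9 were also higher in stroke library 3 than in 1, and Gja1, Aldoc and Fgfr3 were lower.

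The fold changes thus depended on which sham library served as the control. Fits by limma with 1 sham library, in which the lone sham is assumed to vary like the stroke libraries, gave 9 called members without the deeper sham, against 18.2% of all genes. Grin2a and Grin2b fell, and Grin2c, Grin2d, Grm4, Cacng5, Cacng8, Cnih2 and Cnih3 rose. Without the shallower sham 1 member, Grin2d, was called lower, against 3.55% of all genes. The log2 fold change of Grin2a was -1.08 (adjusted p = 0.0077 by limma) without the deeper sham and 0.61 (adjusted p = 0.0875 by limma) without the shallower. For Grin2b these values were -0.82 and 0.64. For Grin2c they were 1.141 and -0.39, and for Grin2d 0.91 (adjusted p = 0.0170 by limma) and -0.82 (adjusted p = 0.0483 by limma). Cnih3 had a positive value in both fits, at 0.58 without the deeper and 0.26 without the shallower sham. Grik3 was at 0.31 in both, and Gria1 at -0.33 and -0.19.

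**Figure D4:**
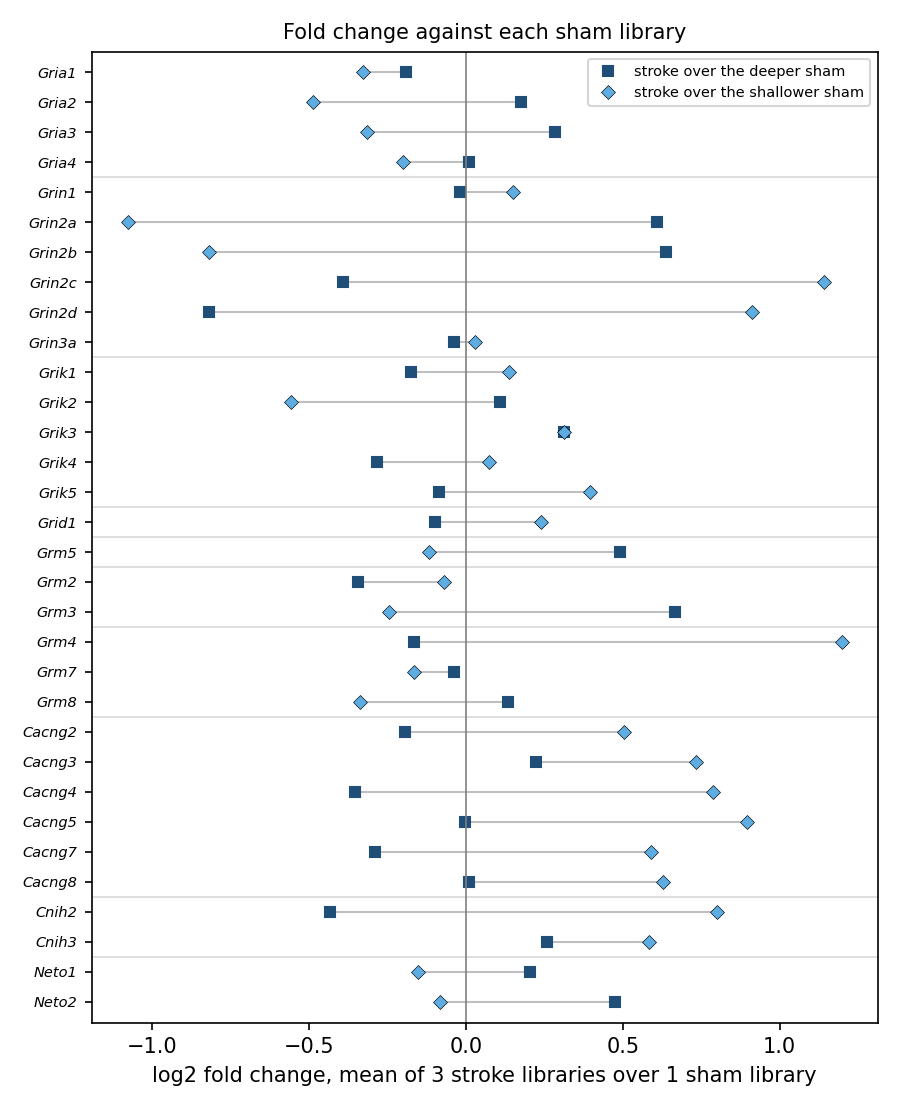
Log2 fold change of the mean of the 3 stroke libraries over the deeper sham alone (squares) and the shallower sham alone (diamonds) for each member, by limma. Grin2a and Grin2b move from positive to negative values and Grin2c and Grin2d from negative to positive, while both symbols of Grik3 sit at 0.31.

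The gap between the sham libraries moved with base composition. Of the 16 members with a transcript GC content of at least 50%, 15 were lower in the shallower than in the deeper sham. Of the 16 below 50%, 13 were higher there. Over 8394 genes at least as abundant as the lowest member, 79.4% went the same way on either side of 50%. Spearman's rho between the log2 sham ratio and GC content was -0.84 across the 32 members and -0.73 across those genes. These are descriptions, since all points come from the same 2 libraries. With exon length rho was 0.67 across the members, and length and GC were themselves related at -0.64. The part of GC content in the fold changes was not tested. After a GC adjustment by limma, chosen after seeing the data, the members gave 0 calls, against 6 of 14504 genes. Cnih3 alone had an unadjusted p below 0.05 by limma, with a log2 fold change of 0.35 (adjusted p = 0.421). The share of all genes below that unadjusted p was not counted for this fit.

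**Figure D5:**
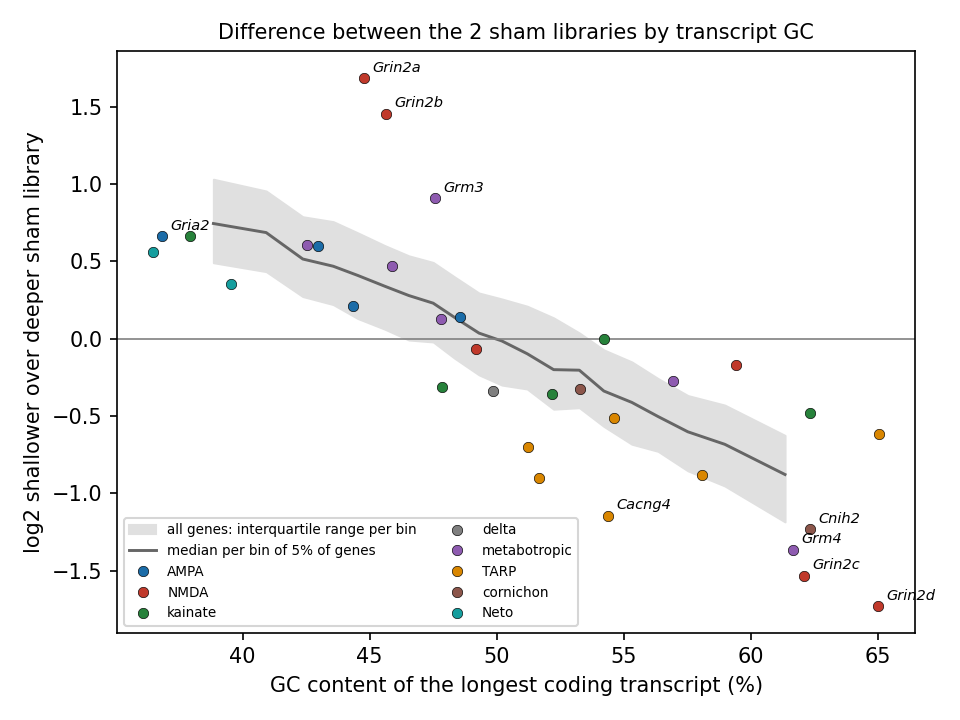
Log2 ratio of the shallower to the deeper sham library against the GC content of the longest coding transcript. Points are members, coloured by class. The line and band give the median and interquartile range of 8394 genes, ordered by GC, in bins of 5% of genes each. The medians fall from 0.75 in the lowest to -0.88 in the highest bin. Grin2a and Grin2b lie above the band. Grin2c and Grin2d lie beyond the median GC of the highest bin and below its median ratio.

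Ratios of subunit reads within a library compare RNA levels, without correction for gene length, and do not measure the makeup of assembled receptors. The part of GC content in these ratios was not tested. The Grin2a to Grin2b read ratio, which rises as forebrain NMDA receptors mature, was 0.375, 0.377 and 0.340 in stroke and 0.370 and 0.435 in sham. The deeper sham fell among the stroke values, so the groups overlapped, and the sham libraries were much closer in this ratio than in either gene. The Grin2c to Grin2b ratio was 0.0479, 0.0568 and 0.0425 in stroke, 0.0993 in the deeper sham and 0.0125 in the shallower sham. Here the stroke libraries lay between. Gria1 to Gria2 was 0.717, 0.664 and 0.697 in stroke, 0.893 in the deeper sham and 0.620 in the shallower sham, which again lie on either side.

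Grik2 to Grik3 was 0.634, 0.533 and 0.458 in stroke and 0.618 and 0.982 in sham, which overlap. Cacng3 to Cacng2 was 0.855, 0.806 and 0.633 in stroke and 0.567 and 0.646 in sham, which overlap too. Over the 7 ratios compared, with Gria3 and Gria4 to Gria2 the others, the smallest two-sided exact permutation p was 0.3 (0.7 after Benjamini-Hochberg adjustment). With 3 against 2 libraries this test cannot go below 0.1.

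Other genes of the pathway showed 2 calls in 3 lists. In the scaffold and trafficking list, 31 genes in 32 rows, 2 were called higher and 0 lower, against 1.56% of all genes. Nptx2, for a secreted pentraxin that clusters AMPA receptors and is induced by activity, was at 5491, 4031 and 2964 in stroke and at 869 and 338 in sham. Its stroke values all exceeded both sham values, and the authors' deposited table placed it at 2.78 on the log2 scale (SE 0.42), with an adjusted p of 3.69e-08 by the DESeq2 Wald test. Grasp, for a scaffold of group I metabotropic receptors, was at 2142, 1848 and 1172 in stroke and at 893 and 552 in sham, also without overlap. The authors' deposited table placed it at 1.25 on the log2 scale (SE 0.34), with an adjusted p of 0.0245 by the DESeq2 Wald test.

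The most abundant uncalled genes of that list were Camk2a, for a calcium-dependent kinase, at -0.13 (SE 0.22), and Nsf, a membrane fusion ATPase, at 0.13 (SE 0.21), as log2 fold changes in the authors' deposited table. Of 17 further receptor and auxiliary genes, 14 were tested and 0 called, with 0 at an unadjusted p below 0.05. Its most abundant genes were Frrs1l, an assembly factor of AMPA receptors, at -0.02 (SE 0.27), and Shisa7 at 0.14 (SE 0.24), as log2 fold changes in the authors' deposited table. Of 15 transport and glutamine cycle genes, all were tested and 0 called, with 1 at an unadjusted p below 0.05, Slc17a6. Its most abundant genes were Slc1a2, for the main astrocyte glutamate transporter, at -0.33 (SE 0.30), and Glul, for glutamine synthetase, at -0.23 (SE 0.23), as log2 fold changes of the authors' deposited table. Slc17a6, a vesicular transporter gene, was at 2168 in the deeper sham and at 336 to 504 in the other libraries.

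Region and cell type markers also moved with the libraries. The summed level of the 5 choroid plexus markers was 14305 in the deeper sham, 253 in the shallower and 375.7 to 385 in stroke. That of the 10 thalamic markers was 14540 in the deeper sham, 8826 in the shallower and 6293 to 8498 in stroke. Of these Rora went the other way, at 3699 in the deeper sham against 5954 in the shallower, and without it, a choice made after seeing the values, the other 9 summed to 10841 in the deeper sham, 2872 in the shallower and 3031 to 3485 in stroke. The 10 striatal markers summed to 70177 in stroke library 1 and 29783 in stroke library 3, with 43269 and 37406 in sham. For 12 cortical glutamatergic markers the sums were 74082 to 94748 in stroke and 79005 and 73544 in sham. The 17 of 18 pan-neuronal markers with recovered reads summed to 220831 to 265162 in stroke and to 220526 and 226606 in sham. The 8 oligodendrocyte and precursor markers with recovered reads summed to 91612 in the deeper sham, 50455 in the shallower and 53361 to 58306 in stroke. For 6 hippocampal markers the sums were 5602 in the deeper sham, 3217 in the shallower and 5390 to 6982 in stroke. Of these C1ql2, Dsp, Lct, Prox1 and Spink8 were highest in the deeper sham, and Wfs1 in stroke library 1. No marker with recovered reads was at 0 in any library. The part of regional makeup in the members' levels was not tested.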

How the data were processed

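Per the submitters' processing notes, reads were handled with STAR 2.5.2b and featureCounts 1.5.1 on GRCm38, besides FastQC and DESeq2 1.14.1. The annotation, strand setting and handling of multiply aligned reads stay not given in the sources used here. Each row of the deposited table is a DESeq2 result for 1 gene, per the file headers. The authors gave a signal, the mean of size-factor-normalised counts over all libraries. The deposited fold change and its standard error are log2 values. The Wald statistic the authors deposited is a score. The authors' p-value and its Benjamini-Hochberg adjusted p-value complete each row, and a gene was called below an adjusted p of 0.05. Genes with 1 read gave 5 values of the mean, 3 with a positive and 2 with a negative fold change, so positive was read as higher in stroke.

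Whole reads per library were searched for with numba 0.67.0 (Python 3.11.15) by repeating the authors' DESeq2 estimation. The mean had to match to its last digit, the fold change within 8e-10 and the log dispersion within 2e-08. This gave 1 solution for 17291 of 17420 genes and for all 32 members. Of 500 altered rows 0 were accepted. Size factors were 1.16, 1.13 and 1.12 in stroke and 0.945 and 0.734 in sham. limma 3.58.1 (R 4.3.3, trend and robust) was fitted to log2 of recovered normalised reads plus a pseudocount of 1, and was checked on simulated data. A test on counts with edgeR was not run, as the deposited columns hold no counts. Gene lengths and GC are from GENCODE M21. Each member is named, with its level in each library or the range over the libraries, and not each with its deposited fold change. Of pathway lists, called genes and the 2 most abundant uncalled ones are named. Ttr, Gapdh, Actb, Trim9, Slc17a6 and the single region and cell type markers, Rorb among them, were named after their values were seen. Members and lists were chosen with earlier results of these data known. Some sequence of the NMDA receptor genes is not reported here.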

Additional observations from a re-analysis of the deposited data

How the results depend on the processing

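No paired analysis was possible because the recovered libraries cannot be tied to the replicate numbers of the labels. The small number of libraries limits the precision of each result. No member was called when p-values were adjusted over 31651 genes, over the 11519 genes with a mean of at least 5 per 1000000, against a fold of 1.5, after centring on all genes or on the pan-neuronal genes, by limma with a pseudocount of 1, 0.5 or 5, or after the GC adjustment, where leaving out either sham library also gave 0. Without that adjustment, leaving out 1 library gave 0 to 9 called members, 9 without the deeper and 1 without the shallower sham. The GC-adjusted fits were added after seeing the data. The number of all genes called was 272 by the authors' Wald test, 187 over all p-values, 142 above 5 per 1000000, 27 against a fold of 1.5, and 5 by limma (4 with a pseudocount of 5, 6 after GC adjustment). It was 1 to 3 without a stroke library, 3153 without the deeper sham and 613 without the shallower. After GC adjustment these last were 160 and 426. Centring on the median of all genes gave 158 higher and 137 lower, and on the pan-neuronal median 83 and 206, against 135 and 137 uncentred. The median log2 fold change of the members was -0.11 after pan-neuronal centring, and ranged from -0.083 to 0.18 over the fits with 1 library left out.

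Values uncalled in the authors' table changed sign as follows, on the log2 scale. After pan-neuronal centring, which takes 0.17 from each, Grin1 was -0.10, Grin3a -0.17, Grik5 -0.035, Grid1 -0.10, Grm5 -0.0060, Grm3 -0.0091, Cacng2 -0.057, Cacng4 -0.028, Cacng7 -0.081, Cnih2 -0.11 and Neto1 -0.15. Centring on all genes put Grik1 at 0.020. By limma Grin2d was 0.046, 0.047 and 0.044 and Grin3a -0.0037, -0.0037 and -0.0037 with a pseudocount of 1, 0.5 and 5. After GC adjustment Gria3 was 0.013, Grin1 -0.11, Grin3a -0.023, Grik5 -0.21, Cacng7 -0.010, Cacng8 -0.050 and Cnih2 -0.19.

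With 1 library left out, values ranged from -0.49 to 0.18 for Gria2, -0.31 to 0.28 for Gria3, -0.20 to 0.0089 for Gria4, -0.023 to 0.15 for Grin1, -1.08 to 0.61 for Grin2a, -0.82 to 0.64 for Grin2b, -0.39 to 1.141 for Grin2c, -0.82 to 0.91 for Grin2d and -0.10 to 0.10 for Grin3a. The ranges were -0.17 to 0.15 for Grik1, -0.56 to 0.11 for Grik2, -0.28 to 0.072 for Grik4, -0.087 to 0.40 for Grik5, -0.10 to 0.24 for Grid1, -0.12 to 0.49 for Grm5, -0.25 to 0.67 for Grm3, -0.17 to 1.20 for Grm4 and -0.34 to 0.13 for Grm8. They were -0.20 to 0.50 for Cacng2, -0.35 to 0.79 for Cacng4, -0.0025 to 0.89 for Cacng5, -0.29 to 0.59 for Cacng7, -0.43 to 0.80 for Cnih2, -0.15 to 0.20 for Neto1 and -0.083 to 0.48 for Neto2. The log2 difference of a subunit ratio ranged from -1.03 to 1.96 for Grin2c to Grin2b, -0.37 to 0.16 for Gria1 to Gria2 and -0.17 to 0.29 for Gria4 to Gria2. The cause of these changes was not tested.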
